A study of Mus musculus with 9 samples.

Results

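The genes described here are 10 that bring iron into a cell, store it and sense it: Tfrc, Slc11a2, Steap3, Fth1, Ftl1, Pcbp1, Ncoa4, Aco1, Ireb2 and Fbxl5. They were taken by symbol from the 55291 gene rows of each library, and all 10 had enough reads to be tested. The libraries hold RNA of mouse acute myeloid leukaemia (AML) cells taken from the lungs and the bone marrow of wild-type recipient mice, or grown in vitro. All 3 groups are Trp53(R172H/Δ), with 1 allele of the p53 gene carrying a missense mutation and the other deleted, and no group has leukaemia cells without these alleles. There were 3 libraries per group and 9 in all, made from total RNA with a low-input kit. The labels give no age, no time after transplantation and no way of sorting the cells, and they do not say whether libraries of a group came from separate mice or cultures. The p-values therefore measure the spread between these libraries, which may be technical.

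Iron travels in blood bound to transferrin, and the transferrin receptor TFR1, encoded by Tfrc, carries it into endosomes. There the reductase STEAP3 converts ferric to ferrous iron, and the transporter DMT1, encoded by Slc11a2, moves it to the cytosol. The chaperone PCBP1 hands iron to ferritin, a hollow shell of heavy chains (Fth1), which oxidise iron, and light chains (Ftl1), which help it to mineralise. NCOA4 brings ferritin to lysosomes, where its iron is released. The iron regulatory proteins IRP1 (Aco1) and IRP2 (Ireb2) sense supply: IRP1 becomes an aconitase when it holds an iron-sulfur cluster, and IRP2 is degraded through the iron-binding ubiquitin ligase subunit FBXL5. When iron is scarce both bind iron-responsive elements (IREs) in messenger RNA, which blocks translation of ferritin from the 5′ untranslated region (UTR) and protects the Tfrc messenger from decay through its 3′ UTR. Erythroid and dividing leukaemic cells are known for high TFR1.

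The IREs are the sequences that the 2 sensors read, and the members that have one carry it at one end of the messenger or the other. Coding transcripts of GENCODE M21 (GRCm38) were searched on their own strand for a C, 5 bases, the loop CAGUGN and 5 bases that pair with the first 5 (G with U allowed). The elements found, printed 5′ to 3′ with the loop in capitals, were as follows.
Fth1 5′ UTR, chr19:9982735-9982758, plus strand: cugcuucaaCAGUGCuugaacgga
Ftl1 5′ UTR, chr7:45459781-45459804, minus strand: uugcuucaaCAGUGUuugaacgga
Tfrc 3′ UTR, chr16:32631222-32631245, plus strand: uaucggaagCAGUGCcuuccauaa
Tfrc 3′ UTR, chr16:32631601-32631624, plus strand: uaucgggagCAGUGUcuuccauaa
Tfrc 3′ UTR, chr16:32631666-32631689, plus strand: uaucggagaCAGUGAucuccauau
Tfrc 3′ UTR, chr16:32631713-32631736, plus strand: uaucgggaaCAGUGUuucccauaa
Slc11a2 3′ UTR, chr15:100395155-100395178, minus strand: caucagagcCAGUGUguuucuaug
The Slc11a2 element was found only when 1 unpaired base was allowed in the 3′ strand of the stem. Both ferritin genes had their match in the 5′ UTR, in 4 of 5 coding Fth1 transcripts and 2 of 3 coding Ftl1 transcripts. Tfrc had 4 matches, all in the 3′ UTR of 1 of its 3 coding transcripts, and Slc11a2 had its match in 1 of 7. These were the only 4 of the 10 members with a match, and Steap3, Pcbp1, Ncoa4, Aco1, Ireb2 and Fbxl5 had none. Among 21951 protein-coding genes, 1.37% held a fully paired match anywhere in a coding transcript and 2.79% held one with the unpaired base. A match is a description of letters, and the counts, which are summed per gene, cannot tell Slc11a2 transcripts with the element from those without it.

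The libraries held 27485111 to 38761363 counted reads, and levels are CPM, reads divided by the library total after TMM scaling. Coordinates are those of GRCm38. Progenitor markers were abundant, with Kit at 631 ± 129, 633 ± 59.5 and 1167 ± 42.7 CPM in lung, bone marrow and culture (mean ± SD, n = 3 each, as for all levels). The leukocyte marker Ptprc was low, at 8.11 ± 2.08, 7.13 ± 8.72 and 1.62 ± 0.369 CPM. Erythroid genes differed widely in level, led in every group by Rhag and Klf1. Rhag averaged 592, 604 and 604 CPM and Klf1 289, 301 and 306 CPM in lung, bone marrow and culture. Others were low, such as the globin genes Hba-a2 at 4.46, 4.09 and 3.23 CPM and Hbb-bt at 7.06, 3.85 and 5.10 CPM. The 11 erythroid markers, of which none was at 0 in a whole group, summed to 1192 to 1398 CPM in lung, 1142 to 1452 in bone marrow and 1575 to 1620 in culture. Neutrophil markers (12 genes, led by Ngp and S100a8) summed to 12.4 to 88.1 CPM in lung, to 342 CPM in marrow library 1, 602 CPM in library 2 and 2132 CPM in library 3, and to 1.38 to 2.65 CPM in culture. Macrophage markers (12 genes) summed to 11.03 to 20.8, 17.7 to 24.1 and 2.98 to 3.27 CPM, with Marco at 0 in bone marrow and C1qa, C1qc, Spic, Marco and Timd4 at 0 in culture. Lung epithelium markers (8 genes) summed to 15.3 to 83.9 CPM in lung, 0.671 to 0.867 CPM in bone marrow, with Sftpa1 at 0, and 0.742 to 1.20 CPM in culture, with Sftpd and Epcam at 0. In the same order of groups, progenitor markers summed to 1660 to 1763, 1482 to 1599 and 2443 to 2543 CPM, endothelium (8 genes) to 127 to 146, 117 to 141 and 111 to 114 CPM (Emcn at 0 in culture), stroma to 182 to 268, 141 to 212 and 239 to 256 CPM (Pdgfra at 0 in bone marrow and culture, Lum in culture), and T and NK cell markers to 2.97 to 4.14, 0.863 to 3.53 and 0.213 to 0.338 CPM (Cd3e, Cd4 and Cd8a at 0 in culture). The progenitor sum is led by Kit and Myb, and of the 10 genes tested 3 rose and 4 fell in each tissue against culture. The endothelial sum is mostly Egfl7, averaging 119, 124 and 111 CPM. The other 6 of the 7 endothelial markers tested rose in lung against bone marrow and against culture, for example Pecam1 at 5.20 ± 3.91, 0.627 ± 0.303 and 0.125 ± 0.0155 CPM and Cldn5 at 3.32 ± 1.93, 0.0182 ± 0.0160 and 0.0350 ± 0.0373 CPM. The stroma sum is mostly Col1a2, averaging 179, 131 and 217 CPM, and Dcn, averaging 44.8, 42.6 and 30.8 CPM, both present in culture. Of the 5 stroma markers tested, 3 rose and 0 fell in lung against culture, and 2 rose and 2 fell in bone marrow against culture. In bulk RNA of this kind, fewer cells of a type and less RNA per cell cannot be told apart.

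Per length, ferritin heavy chain was the most abundant of the 10 messengers in every group. Dividing CPM by the kilobases of the principal GENCODE transcript gave 1912 ± 86.3, 2193 ± 213 and 1990 ± 95.4 CPM per kilobase for Fth1 in lung, bone marrow and culture. Ftl1 followed at 846 ± 92.9, 747 ± 78.4 and 897 ± 57.7, and Pcbp1 at 177 ± 11.1, 148 ± 10.1 and 180 ± 8.77 CPM per kilobase. Tfrc came next in each group, at 85.2 ± 11.2, 71.8 ± 19.7 and 161 ± 13.3 CPM per kilobase. Slc11a2 stood below it at 65.1 ± 3.18, 67.9 ± 2.66 and 76.3 ± 1.97, a gap that in bone marrow was within the spread of Tfrc. Aco1, Fbxl5, Steap3 and Ireb2 lay between 14.96 and 41.2 CPM per kilobase in group means. Among these, Aco1 and Fbxl5 in bone marrow, and Steap3 and Ireb2 in lung, were within their spread of each other, and Ncoa4 was lowest at 6.50 ± 0.663, 5.77 ± 0.512 and 9.41 ± 0.682.

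**Figure D1:**
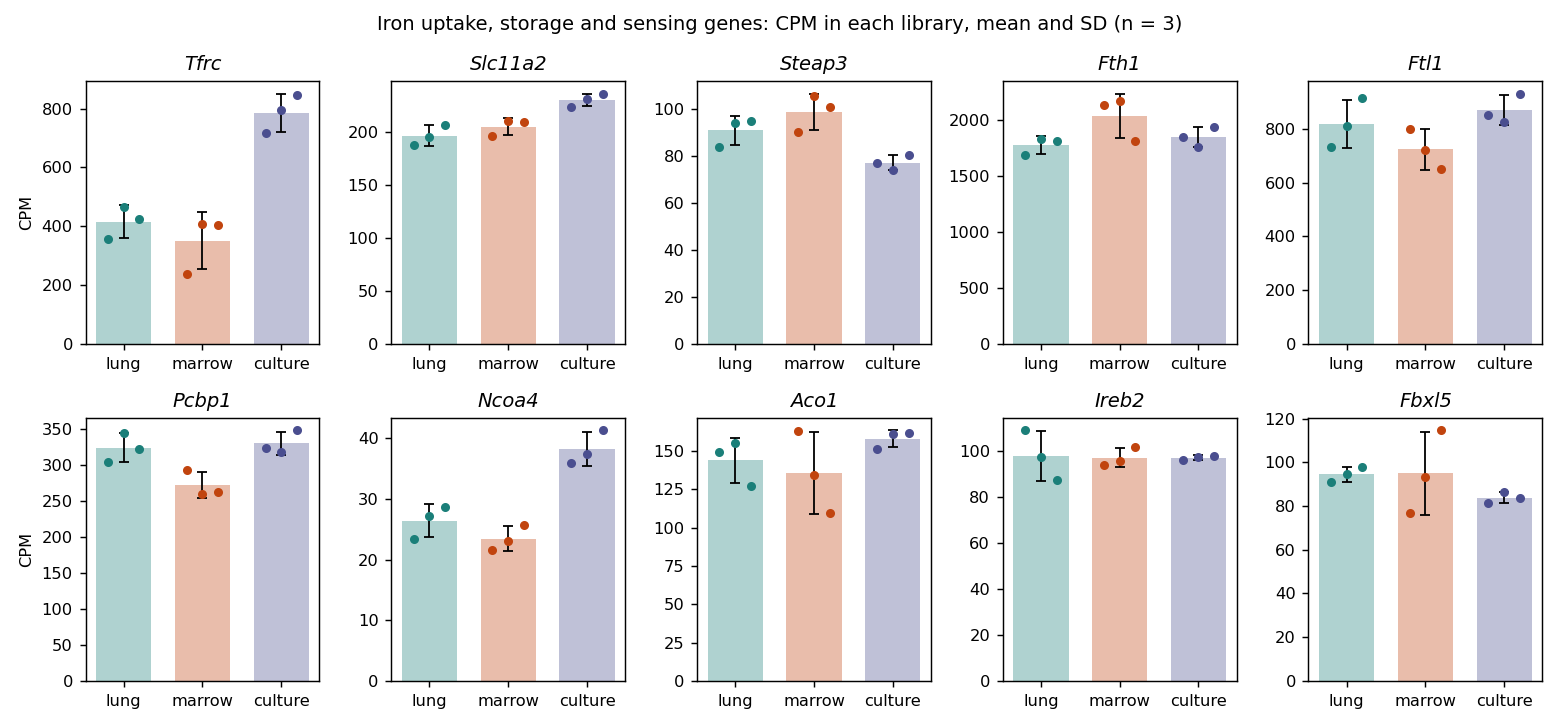
Level of each gene in CPM (vertical axes, from 0) in lung, bone marrow ("marrow") and culture; points are libraries, bars group means and error bars SD (n = 3). Tfrc and Ncoa4 stand lower in every lung and bone marrow library than in every culture library, while Ireb2 averages 97.7, 96.8 and 96.9 CPM in the 3 groups.

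In bone marrow against culture, 1 of the 10 members rose and 4 fell, where 60.5% of the 15066 genes tested passed (30.7% higher and 29.8% lower). In lung against culture 1 rose and 3 fell, where 54.9% of all genes passed (27.9% higher and 27% lower). In lung against bone marrow 1 rose and 0 fell, where 25.3% passed (14.2% higher and 11.1% lower). The groups did not overlap for 6, 5 and 1 members in these comparisons, against 67.2%, 66.8% and 36.6% of all genes. The members' shares were thus below the background or near it. Their absolute log2 changes had medians of 0.24, 0.15 and 0.15, and those of all tested genes were 0.55, 0.48 and 0.27. The 2 comparisons against culture share their culture libraries. For Tfrc, Ncoa4 and Steap3, which passed in both, no difference between the tissues passed in the fit of all 9 libraries (adjusted p = 0.36, 0.28 and 0.32), with 95% intervals of -0.17 to 0.66, -0.07 to 0.41 and -0.31 to 0.06.

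**Figure D2:**
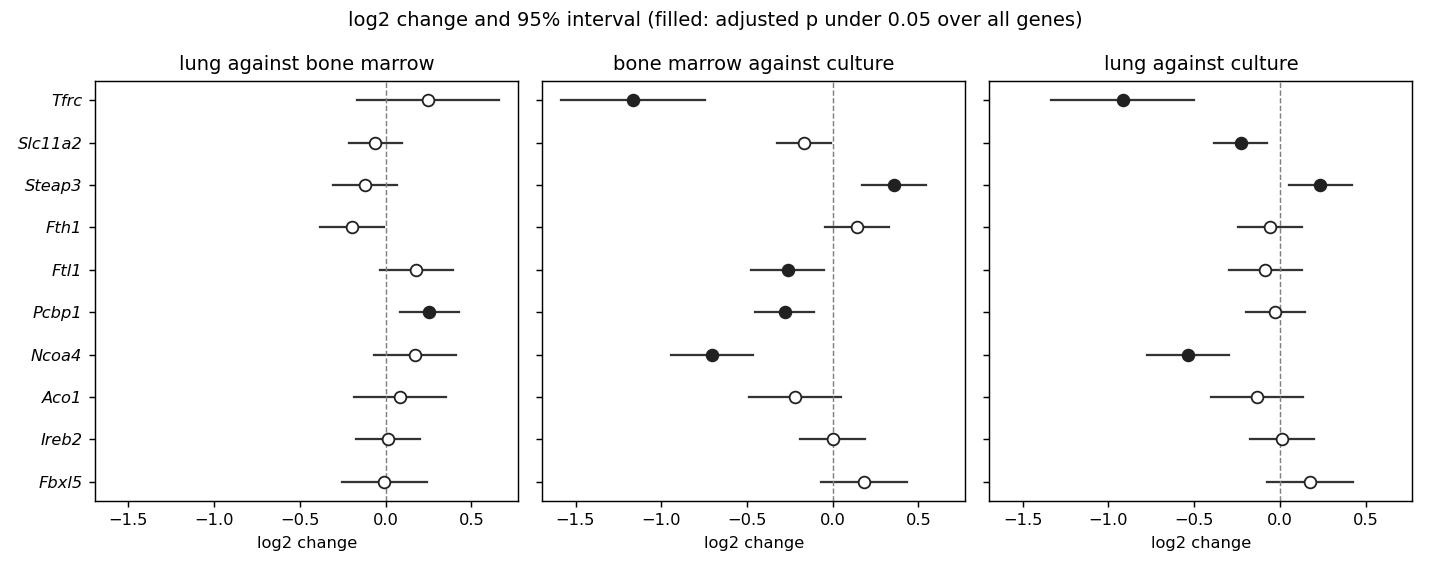
log2 change (horizontal axes) with its 95% interval for each gene in the 3 comparisons; filled circles have an adjusted p under 0.05 over all tested genes. Tfrc (-0.92 in lung and -1.16 in bone marrow against culture) and Ncoa4 (-0.53 and -0.70) lie farthest from 0, and only Pcbp1 (0.25) is filled in lung against bone marrow.

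The transferrin receptor messenger was the member that differed most, and it was lower in cells from both tissues than in cultured cells. Tfrc, on chromosome 16 from 32608920 to 32632794, was at 357, 466 and 426 CPM in the lung libraries (replicates 1 to 3), at 240, 409 and 404 CPM in the bone marrow libraries and at 717, 796 and 845 CPM in the culture libraries. Every tissue library lay below every culture library, and marrow library 1 was the lowest of all. Tfrc fell in bone marrow against culture by 1.16 ± 0.19 on the log2 scale (SE; edgeR quasi-likelihood adjusted p = 0.00041) and in lung against culture by 0.92 ± 0.19 (adjusted p = 0.0021). With marrow library 1 left out its change in bone marrow against culture was -0.95 (adjusted p = 1.4e-05), and without library 3, which holds the most neutrophil RNA, it was -1.28 (adjusted p = 0.00032). Between lung and bone marrow the Tfrc change was 0.25 with a 95% interval of -0.17 to 0.66 (adjusted p = 0.36), and 0.03 with marrow library 1 left out. It passed in 1 alternative, the replicate block in the 6 tissue libraries alone (0.28, adjusted p = 0.037). The summed erythroid and progenitor markers were also lower in all 6 tissue libraries than in culture, and their part in the Tfrc difference was not tested.

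The reductase that works beside the receptor in the endosome went the other way. Steap3, on chromosome 1 from 120190757 to 120272705, was at 83.9, 93.9 and 95.05 CPM in lung, 90.5, 106 and 101 CPM in bone marrow and 77.2, 74.0 and 80.3 CPM in culture. All tissue libraries lay above all culture libraries, by a small margin in lung. Steap3 rose in bone marrow against culture by 0.36 ± 0.09 (adjusted p = 0.0027) and in lung against culture by 0.24 ± 0.09 (adjusted p = 0.032). The lung call did not hold with any 1 culture library, or lung library 2 or 3, left out (log2 changes of 0.18 to 0.26, adjusted p = 0.054 to 0.18).

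The endosomal iron transporter was slightly lower in tissue cells. Slc11a2, on chromosome 15 from 100387898 to 100425072, was at 188, 196 and 207 CPM in lung, at 196, 211 and 209 CPM in bone marrow and at 224, 231 and 236 CPM in culture. Neither tissue overlapped culture. It fell in lung against culture by 0.23 ± 0.07 (adjusted p = 0.016), a call lost with culture library 3 left out (-0.22, adjusted p = 0.054) and with lung library 1 left out (-0.19, adjusted p = 0.07). In bone marrow against culture its log2 change of -0.17 ± 0.07 did not pass (adjusted p = 0.059), though it did with DESeq2 (adjusted p = 0.0304) and with lung library 3 left out (adjusted p = 0.0499). Of its exonic bases, 6.33% overlap the opposite-strand gene Gm5475, and strand is not used in these counts.

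The 2 ferritin chains changed little, and not together. Fth1, on chromosome 19 from 9980598 to 9985098, was at 1684, 1833 and 1811 CPM in lung, 2133, 2170 and 1810 CPM in bone marrow and 1852, 1758 and 1935 CPM in culture. The groups overlapped, and no comparison passed with TMM scaling: the log2 change was -0.20 (95% interval -0.38 to -0.01, adjusted p = 0.11) in lung against bone marrow, 0.14 (-0.05 to 0.33, adjusted p = 0.17) in bone marrow against culture and -0.06 (-0.24 to 0.13, adjusted p = 0.6) in lung against culture. Upper-quartile scaling made it pass in lung against bone marrow (-0.25, adjusted p = 0.049) and in bone marrow against culture (0.21, adjusted p = 0.044), as library size scaling did in the second of these (0.20, adjusted p = 0.038). Marrow library 3 lay below the other marrow libraries, and without it Fth1 was lower in lung than in bone marrow (-0.29, adjusted p = 0.028) and higher in bone marrow than in culture (0.22, adjusted p = 0.049).

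The light chain had its lowest mean in bone marrow. Ftl1, on chromosome 7 from 45457944 to 45459884, was at 734, 809 and 913 CPM in lung, 800, 720 and 649 CPM in bone marrow and 849, 824 and 931 CPM in culture. Bone marrow lay below culture without overlap, and lung overlapped both. Ftl1 fell in bone marrow against culture by 0.26 ± 0.10 (adjusted p = 0.034), a call lost on leaving out culture library 1 or 3 or marrow library 2 or 3 (-0.30 to -0.19, adjusted p = 0.056 to 0.14) and under library size or upper-quartile scaling. In lung against culture its change was -0.08 (95% interval -0.30 to 0.13). Between lung and bone marrow it was 0.18 (-0.04 to 0.39) and did not pass (adjusted p = 0.2). The order of the bone marrow libraries in Ftl1 is the reverse of their order in neutrophil marker RNA, whose part was not tested. Near-identical copies of ferritin took few reads: Ftl1-ps1 had 614, Ftl2-ps 127 and Ftl1-ps2 54 reads over 9 libraries against 233827 for Ftl1, and Fth-ps2 and Fth-ps3 had 18 and 6 against 553877 for Fth1. Reads that fit several copies could still have been left out of the ferritin counts, and 26.5% of the exonic bases of Ftl1 overlap the opposite-strand model Gm10252.

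Because both chains come from the same library, their ratio does not depend on scaling. There were 2.29, 2.27 and 1.98 Fth1 reads per Ftl1 read in lung, 2.66, 3.01 and 2.79 in bone marrow and 2.18, 2.13 and 2.08 in culture. The bone marrow libraries lay above all the others (exact 2-sided permutation p = 0.1 against each group, the smallest that 3 against 3 libraries allow), and lung overlapped culture (exact p = 0.7). Tfrc reads per Fth1 read averaged 0.234 ± 0.0209 in lung, 0.175 ± 0.0567 in bone marrow and 0.426 ± 0.0344 in culture. This is a ratio of messengers, and ferritin protein and stored iron were not measured. Both tissues lay below culture without overlap (exact p = 0.1 each), and they overlapped each other (exact p = 0.2).

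**Figure D3:**
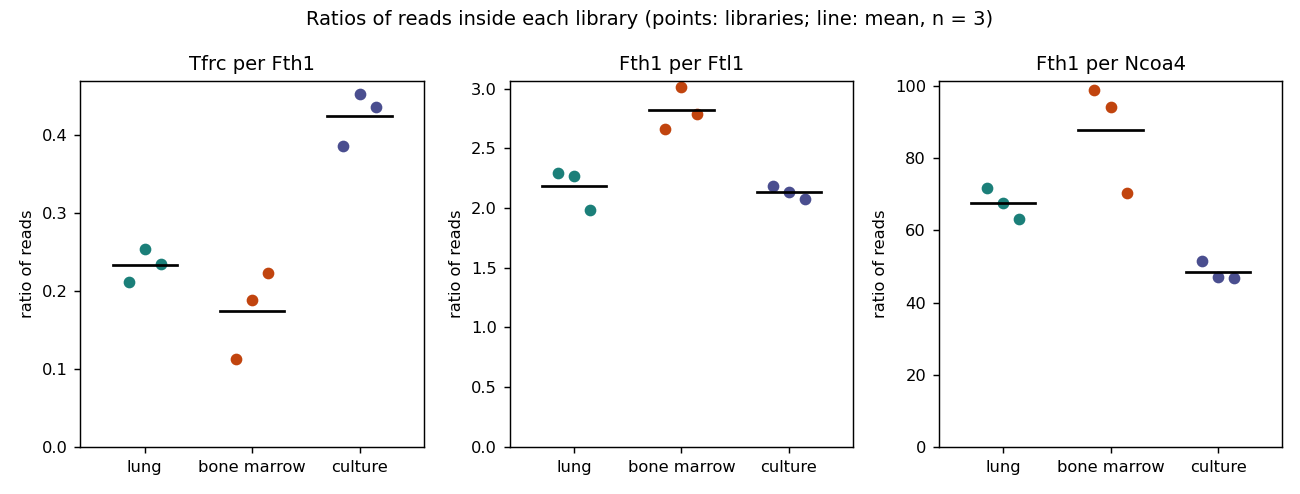
Ratio of reads of 2 genes inside each library (vertical axes, from 0) for lung, bone marrow and culture; points are libraries and lines are means (n = 3). Tfrc per Fth1 is lower in both tissues than in culture, Fth1 per Ftl1 is highest in bone marrow, and Fth1 per Ncoa4 averages 67.5, 87.7 and 48.4.

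Of the proteins that load and unload ferritin, the receptor for its breakdown changed most. Ncoa4, on chromosome 14 from 32159865 to 32179855, was at 23.4, 27.1 and 28.7 CPM in lung, 21.6, 23.1 and 25.7 CPM in bone marrow and 36.0, 37.4 and 41.3 CPM in culture. No tissue library reached the culture range. Ncoa4 fell by 0.70 ± 0.11 in bone marrow against culture (adjusted p = 1e-04) and by 0.53 ± 0.11 in lung against culture (adjusted p = 0.0011), and both calls held when any 1 library was left out. Its change in lung against bone marrow was 0.17 (95% interval -0.07 to 0.41, adjusted p = 0.28).

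The iron chaperone was lower in bone marrow than in either other group. Pcbp1, on chromosome 6 from 86524492 to 86526321, was at 304, 345 and 322 CPM in lung, 293, 259 and 263 CPM in bone marrow and 323, 318 and 348 CPM in culture. The bone marrow libraries lay below all the others. Pcbp1 fell by 0.28 ± 0.08 in bone marrow against culture (adjusted p = 0.0083), rose by 0.25 ± 0.08 in lung against bone marrow (adjusted p = 0.034) and changed by -0.03 (95% interval -0.20 to 0.15) in lung against culture. The call between the tissues was lost on leaving out library 1 or 2 of culture, or library 2 or 3 of either tissue (log2 changes of 0.19 to 0.25, adjusted p = 0.079 to 0.19). Pcbp1 is a gene of 1 exon related in sequence to Pcbp2, so its counts are uncertain where reads fit both, and 4.1% of its bases overlap the antisense gene 1600020E01Rik.

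The sensors showed no change that passed in the edgeR fit of all 9 libraries. Ireb2, on chromosome 9 from 54863789 to 54912530, was at 109, 97.2 and 87.0 CPM in lung, 93.6, 95.3 and 101 CPM in bone marrow and 95.8, 97.1 and 97.8 CPM in culture, and the groups overlapped. Its changes were 0.01 (95% interval -0.18 to 0.20) in lung against bone marrow, -0.00 (-0.19 to 0.19) in bone marrow against culture and 0.01 (-0.18 to 0.20) in lung against culture. Aco1, on chromosome 4 from 40143081 to 40198338, ranged over 127 to 155 CPM in lung, 110 to 163 CPM in bone marrow and 151 to 161 CPM in culture. It spread most in bone marrow, where the coefficient of variation was 19.8%, against 10.2% in lung and 3.56% in culture. Its changes of 0.08 (-0.18 to 0.35), -0.22 (-0.49 to 0.05) and -0.13 (-0.40 to 0.13) in the same order did not pass (adjusted p = 0.66, 0.15 and 0.38). In bone marrow against culture Aco1 did pass with limma voom with quality weights (-0.25, adjusted p = 0.0396).

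Fbxl5, whose protein removes IRP2 in iron-replete cells, lies on chromosome 5 from 43744615 to 43821638. It was at 91.2, 94.7 and 97.9 CPM in lung, 77.0, 93.3 and 115 CPM in bone marrow and 81.5, 86.4 and 83.5 CPM in culture. Lung lay above culture without overlap but did not pass (0.17, 95% interval -0.08 to 0.42, adjusted p = 0.22), nor did bone marrow against culture (0.18, -0.07 to 0.43, adjusted p = 0.19). In the 6 libraries of lung and culture alone it passed (0.20, adjusted p = 0.022), also with the replicate block (0.20, adjusted p = 0.046). Of its exonic bases 1.01% overlap Bst1 on the opposite strand. Among the 3 marrow libraries, those with more neutrophil marker RNA had more Fbxl5, Ireb2 and Ncoa4 and less Aco1 and Ftl1. In lung, Fbxl5 was lowest in library 1, which held the most neutrophil marker RNA of that group. The part of neutrophil RNA was not tested. With marrow library 1 left out, Fbxl5 rose (0.31, adjusted p = 0.0098) and Aco1 fell (-0.37, adjusted p = 0.011) in bone marrow against culture, which took the count of passing members in that comparison to 7.

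The rest of iron handling was followed in 6 lists. Over all tested genes, 25.3% passed in lung against bone marrow, 60.5% in bone marrow against culture and 54.9% in lung against culture. Among other genes of iron and haem entry, export and systemic control, 16 of 27 could be tested. Of these, 3 rose and 2 fell in lung against bone marrow, 7 rose and 3 fell in bone marrow against culture, and 6 rose and 4 fell in lung against culture (median log2 changes -0.01, 0.24 and 0.27, beside -0.01, 0.05 and 0.02 over all genes). Slc39a8, which encodes the metal importer ZIP8, was lower in both tissues, at 83.4, 59.7 and 145 CPM on average in lung, bone marrow and culture. It fell by 0.79 ± 0.09 in lung against culture and 1.28 ± 0.09 in bone marrow against culture, and was 0.48 ± 0.09 higher in lung than in bone marrow. Slc40a1 encodes ferroportin, the known cellular iron exporter, and has a 5′ IRE. It was at 194, 151 and 137 CPM in lung, 240, 250 and 221.96 CPM in bone marrow and 222.4, 240 and 246 CPM in culture, and fell in lung by 0.56 ± 0.11 against bone marrow (adjusted p = 0.0034) and by 0.55 ± 0.11 against culture (adjusted p = 0.00092).

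Haem transporters in that list differed in direction. Flvcr1, a haem exporter in earlier work that is now also described as a choline transporter, rose by 0.79 ± 0.12 in lung and 0.63 ± 0.12 in bone marrow against culture. Slc48a1, which releases haem from endolysosomes, fell by 0.48 ± 0.09 in lung and 0.56 ± 0.09 in bone marrow against culture. Hmox2, a constitutive haem oxygenase, rose by 0.27 ± 0.11 in lung (adjusted p = 0.047) and 0.36 ± 0.11 in bone marrow against culture. Its lung call was lost on leaving out any 1 culture library or library 2 or 3 of either tissue (0.13 to 0.30, adjusted p = 0.0502 to 0.3). Lcn2, which encodes a siderophore-binding protein of neutrophil granules, was at 4.56, 0.750 and 0.474 CPM in lung and 19.2, 30.8 and 100 CPM in bone marrow, and had at most 0.107 CPM in culture. It is itself among the 12 neutrophil markers, and its fall in lung against bone marrow (log2 change -4.64 ± 1.01, adjusted p = 0.02) was lost on leaving out lung library 2 (-4.28, adjusted p = 0.071).

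Iron-sulfur cluster assembly in mitochondria changed in both directions against culture. Of 19 tested genes, none rose and 5 fell in lung against bone marrow, 6 rose and 4 fell in bone marrow against culture, and 5 rose and 4 fell in lung against culture (medians -0.08, 0.01 and -0.09). Of all genes 25.3%, 60.5% and 54.9% passed in that order, and the list's shares, both directions together, were near these or below them. In lung against bone marrow, where all 5 that passed fell, 14.2% of all genes rose and 11.1% fell. The scaffold gene Iscu averaged 46.0 CPM in lung, 46.0 CPM in bone marrow and 23.1 CPM in culture, and rose by 0.99 ± 0.09 in each tissue against culture. Nfu1, which passes clusters to target enzymes, fell by 0.65 ± 0.09 in lung and 0.67 ± 0.09 in bone marrow, and Bola3, which acts with it, by 0.52 ± 0.11 and 0.27 ± 0.11. Abcb10, a mitochondrial transporter of erythroid cells, fell by 0.46 ± 0.15 in bone marrow against culture, but not on leaving out culture library 3 (-0.44, adjusted p = 0.058). The co-chaperone Hscb and Lyrm4, a partner of the cysteine desulfurase, fell in lung against bone marrow by 0.58 ± 0.10 and 0.57 ± 0.13. The count of 5 in lung against bone marrow was 2 on leaving out marrow library 2 and 3 on leaving out lung library 1 or 2.

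The cytosolic side of that pathway was followed together with the other iron chaperones. Of 14 tested genes, 9 rose and 3 fell in bone marrow against culture, where 30.7% of all genes rose and 29.8% fell, and 7 rose and 2 fell in lung against culture, where 27.9% rose and 27% fell (medians 0.45 and 0.29, beside 0.05 and 0.02 over all genes), while 1 rose and 2 fell in lung against bone marrow. Ciapin1, an early electron carrier of cluster assembly, was at 113, 103 and 99.9 CPM in lung, 120, 106 and 85.5 CPM in bone marrow and 51.5, 51.8 and 50.5 CPM in culture. It rose by 1.04 ± 0.11 in lung and 1.02 ± 0.11 in bone marrow. Its reductase partner Ndor1 rose by 0.98 ± 0.14 in lung and 1.07 ± 0.14 in bone marrow against culture, and the scaffold gene Nubp2 by 0.98 ± 0.08 and 0.94 ± 0.08. The relatives of Pcbp1 differed among themselves: Pcbp4 fell by 0.65 ± 0.18 in lung and 1.48 ± 0.19 in bone marrow against culture, and Pcbp3 by 0.41 ± 0.10 and 0.32 ± 0.10. Ciao2b, of the cytosolic targeting complex, fell by 0.36 ± 0.14 in bone marrow against culture, with overlapping groups and a call lost on leaving out culture library 1 or 3 or marrow library 1 or 2 (adjusted p = 0.083 to 0.13). In lung against bone marrow Ciao2a and Glrx3 fell by 0.48 ± 0.10 and 0.43 ± 0.11.

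Other messengers known to carry an IRE did not share a direction. Of 7 tested, 2 rose and 1 fell in lung against bone marrow, none rose and 3 fell in bone marrow against culture, and 2 rose and 3 fell in lung against culture (medians 0.18, -0.12 and -0.09). The shares of all genes that passed were 25.3%, 60.5% and 54.9% in that order. Alas2, the erythroid enzyme that opens haem synthesis, with a 5′ element, averaged 22.9 CPM in lung, 12.5 CPM in bone marrow and 13.0 CPM in culture. It rose in lung by 0.88 ± 0.22 against bone marrow (adjusted p = 0.015), a call lost on leaving out lung library 2 (0.67, adjusted p = 0.064), and by 0.82 ± 0.22 against culture (adjusted p = 0.0089). Alas2 is also among the erythroid markers summed above. The other that rose in lung was Epas1, which encodes the hypoxia factor HIF-2α and is named after its values were seen, at 1.83 to 13.5 CPM in lung and 0 in bone marrow and culture. Endothelial and lung epithelial markers were higher in lung with it, such as Cldn5 and, at 8.25 to 35.9 CPM in lung and at most 0.107 CPM elsewhere, Sftpc, and their part in the Epas1 count was not tested. Leaving out lung library 2 took the list's count in lung against bone marrow to 1. Cdc42bpa, a kinase gene whose 3′ element was described in human, was at 44.2, 41.1 and 34.3 CPM in lung, 41.1, 28.6 and 24.8 CPM in bone marrow and 79.9, 86.1 and 82.4 CPM in culture. Like Tfrc it fell in both tissues against culture, by 1.05 ± 0.16 in lung and 1.39 ± 0.16 in bone marrow. Cdc14a, of the same list, averaged 35.9, 32.7 and 35.5 CPM in lung, bone marrow and culture.

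Partners in the breakdown of ferritin and of IRP2 were split. Of 9 tested, 1 rose and 2 fell in lung against bone marrow, 3 rose and 5 fell in bone marrow against culture, and 1 rose and 4 fell in lung against culture (medians 0.09, -0.41 and -0.00). The shares of all genes that passed were 25.3%, 60.5% and 54.9% in that order. Atg9a, a vesicle protein of autophagy, fell by 0.97 ± 0.10 in lung and 1.22 ± 0.10 in bone marrow against culture. Tax1bp1, an adaptor for NCOA4-driven ferritin delivery, fell by 0.62 ± 0.09 in lung and 0.71 ± 0.09 in bone marrow against culture, and Rb1cc1, a subunit of the autophagy-starting kinase complex, by 0.61 ± 0.08 and 0.72 ± 0.08. Atg5, which acts in the conjugation step of autophagy, rose by 0.46 ± 0.09 in bone marrow against culture. Skp1a, which encodes the adaptor between FBXL5 and its ligase, averaged 448 CPM in lung, 634 CPM in bone marrow and 335 CPM in culture. It rose by 0.42 ± 0.09 in lung and 0.92 ± 0.09 in bone marrow against culture and fell by 0.50 ± 0.09 in lung against bone marrow. The ligase gene Rbx1 fell by 0.27 ± 0.08 and Herc2, the ligase of NCOA4, rose by 0.41 ± 0.12 in lung against bone marrow. Neither call held on leaving out library 2 of either tissue (adjusted p = 0.058 to 0.12). Rbx1 also lost it without lung library 1 (adjusted p = 0.078), and Herc2 without library 3 of either tissue (adjusted p = 0.095 and 0.06). The list's count of 3 in that comparison was 1 on leaving out library 2 of either tissue and 5 on leaving out marrow library 1.

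The last list holds regulators of the Tfrc messenger and of receptor traffic. Of 15 tested, 6 rose and 1 fell in lung against bone marrow, where 14.2% of all genes rose and 11.1% fell, 2 rose and 5 fell in bone marrow against culture, and 6 rose and 5 fell in lung against culture (medians 0.37, -0.08 and 0.10, beside -0.01, 0.05 and 0.02 over all genes). Zfp36 encodes tristetraprolin, which promotes decay of AU-rich messengers and has been linked to Tfrc. It was at 41.9, 42.5 and 59.7 CPM in lung, 5.41, 4.77 and 9.10 CPM in bone marrow and 19.0, 18.7 and 17.1 CPM in culture. Lung was thus highest and bone marrow lowest, and the log2 change was 2.89 ± 0.23 in lung against bone marrow, -1.50 ± 0.22 in bone marrow against culture and 1.39 ± 0.21 in lung against culture. Its relative Zfp36l1 was at 30.96, 32.16 and 32.99 CPM in lung, and averaged 15.1 CPM in bone marrow and 53.0 CPM in culture. It fell by 0.73 ± 0.10 in lung and 1.81 ± 0.10 in bone marrow against culture. Zfp36l2 rose by 1.61 ± 0.37 in lung against culture (adjusted p = 0.0077), with lung libraries at 1116, 1195 and 514 CPM.

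Myc, a transcriptional activator of Tfrc, was highest in bone marrow. It was at 521, 592 and 529 CPM in lung, 754, 691 and 736 CPM in bone marrow and 591, 623 and 585 CPM in culture. Myc rose by 0.28 ± 0.08 in bone marrow against culture (adjusted p = 0.0071) and fell by 0.41 ± 0.08 in lung against bone marrow (adjusted p = 0.0026). Its part in the Tfrc levels was not tested. Of the trafficking genes, the retromer subunit Vps35 fell by 0.62 ± 0.10 in lung and 0.50 ± 0.10 in bone marrow against culture, and the clathrin light chain gene Clta rose by 0.67 ± 0.10 and 0.89 ± 0.10.

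**Figure D4:**
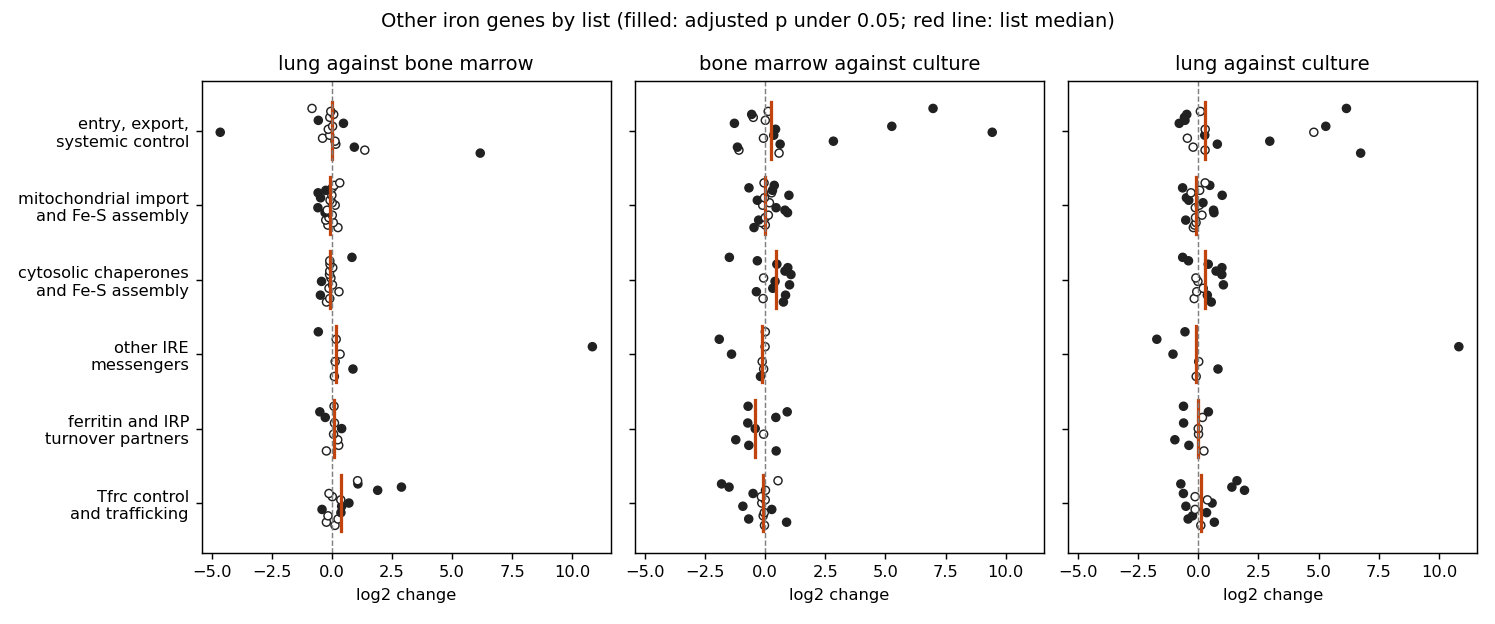
log2 change (horizontal axes) of each tested gene in the 6 lists of other iron genes, for the 3 comparisons; filled circles have an adjusted p under 0.05 and red lines are list medians. Most values lie near 0, the median of the cytosolic list is 0.45 in bone marrow and 0.29 in lung against culture, and the points above 5 are genes near 0 CPM in at least 1 group, whose fitted change depends on the prior count.

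Across the 9 libraries, the genes whose log2 CPM ran most closely with Tfrc, among 6370 named genes of 32 CPM or more, were Tspan31, St3gal6, Kdm4c, Mboat2 and Smyd4 (Pearson r = 0.99, 0.99, 0.98, 0.98 and 0.98). Those closest to Fth1 were Rps26, Rps4x, Bag1, Sys1 and Rbfa (r = 0.94, 0.94, 0.92, 0.92 and 0.91). These are the highest of many values over libraries in 3 groups, given as a description. Mboat2 averaged 27.7, 18.7 and 122 CPM and Kdm4c 46.9, 38.1 and 93.8 CPM in lung, bone marrow and culture, the order seen in Tfrc. Rps4x averaged 296, 368 and 310 CPM, highest in bone marrow as Fth1 was.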

How the data were processed

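RNA was measured in 9 libraries, 3 each from lung, bone marrow and culture, grouped by the sample titles. Each deposited file holds unnormalised read counts, 1 row per gene symbol. The authors used bcl2fastq and STAR with the build mm10, per the submitters' processing notes (versions, counting tool, annotation: not given in the sources used here). Of 55291 symbols, 53292 occur in GENCODE M21, which gave coordinates, transcript lengths and UTRs. Genes passing filterByExpr (15066) entered 1 edgeR 4.0.16 quasi-likelihood fit in R 4.3.3 with TMM scaling, all 9 libraries, group as the only term and robust dispersion. Adjusted p-values are Benjamini-Hochberg over all tested genes, and a gene passed under 0.05. Intervals are 95% and SE is of the log2 change. The steps were tested on simulated data. Replicates differed beyond sampling noise, with 3.92 to 43.9 in chi-square over its degrees of freedom, so none was counted as a duplicate. The ratio of reads inside a library was tested by exact permutation.

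The members and the lists were chosen with earlier results of these data known. Genes named were all members, up to 2 passing genes per direction of each list at 10 CPM or more, the most abundant of each marker list, every Fth and Ftl row, and 5 genes closest to Tfrc and to Fth1. Some genes that this rule picked are not reported here. Alternatives were scaling by RLE, by upper quartile or by library size alone, no filter, a filter of 1 CPM in 6 libraries, DESeq2 1.42.0, limma 3.58.1 voom, 6 libraries alone, the replicate block and leaving out each library.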

Additional observations from a re-analysis of the deposited data

Results flagged for a closer look

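The change of Pcbp1 against culture differed between the tissues: it was -0.03 on the log2 scale in lung and -0.28 in bone marrow, a difference of 0.25 that passed the test of lung against bone marrow (edgeR adjusted p = 0.034, all 3 lung libraries above all 3 bone marrow libraries). It passed in 11 of the 19 alternatives, and the cause was not tested.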

How the results depend on the processing

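Of the 10 calls of members in the 3 comparisons, 6 passed in all 19 alternatives: Tfrc and Ncoa4 in both comparisons against culture, and Steap3 and Pcbp1 in bone marrow against culture. Tfrc changed by -1.03 to -0.81 in lung and by -1.29 to -0.95 in bone marrow, and Ncoa4 by -0.61 to -0.45 in lung and by -0.78 to -0.63 in bone marrow. The others, Slc11a2 and Steap3 in lung against culture, Ftl1 in bone marrow against culture and Pcbp1 in lung against bone marrow, passed in 16, 14, 12 and 11. No call changed sign. Passing members in lung against bone marrow numbered 0 in the 6 libraries alone, 2 with the replicate block in the 6 libraries alone (Tfrc at 0.28, adjusted p = 0.037, beside Pcbp1), and 0 to 1 leaving out 1 library, with 0 for library 1 or 2 of culture, 2 of bone marrow and 2 or 3 of lung. In lung against culture they numbered 2 to 4 leaving out 1 library, with 2 for library 3 of culture, and in bone marrow against culture 4 to 7. Over the whole table, lung against bone marrow gave 3806 calls, 2381 in the 6 libraries alone and 2414 to 4760 leaving out 1 library, with the fewest for library 2 of lung (2414) and of bone marrow (2473). Applied after the data were seen to 57 calls of list genes picked by the rule for named genes, the same alternatives kept 49 throughout. Lcn2 lost its call in lung against bone marrow with the replicate block (adjusted p = 0.057).

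The labels do not say what a replicate number marks. The deviations from group means of a lung and a marrow library with 1 number had r of 0.03, 0.27 and 0.09 over all 15066 genes tested (different numbers -0.24 to 0.14), not every pair over 0.1, so the numbers were not taken as pairs. Over 6481 genes of 32 CPM or more r was 0.41, 0.43 and 0.31 (different numbers -0.37 to 0.04), each library best with its own number, a hint from the data that lung and bone marrow libraries may be paired. With the replicate block in all 9 libraries 1 member passed between the tissues, 5 in bone marrow against culture and 4 in lung against culture, as without it. Every member had at least 726 reads in each library, and 3 libraries per group limit the precision.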
